A study of Homo sapiens with 24 samples.

Results

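The 33 genes described here encode the apparatus through which secretory and membrane proteins enter the endoplasmic reticulum (ER), lose their signal peptide and receive N-linked glycans. They were matched by gene name, from a list written when earlier results of these data were known, as 33 of the 18915 genes in the deposited count table. All 33 passed the filter on low counts that left 12685 genes for testing, although *TUSC3* passed it through the bortezomib groups alone and so had to differ. The set holds 6 subunits of the signal recognition particle (SRP), 2 of the SRP receptor, 3 of the SEC61 channel, 3 channel partners, 4 subunits of the translocon-associated protein complex (TRAP), 5 of signal peptidase and 10 of oligosaccharyltransferase.

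A ribosome that starts to make a secretory protein exposes a signal peptide, which SRP binds before it docks at its receptor on the ER membrane. The chain is then passed to the SEC61 channel, helped by TRAP, SEC62, SEC63 and TRAM1. Signal peptidase removes the signal peptide on the lumenal side, and oligosaccharyltransferase moves a preassembled glycan from a lipid carrier to asparagine residues of the chain. The liver secretes most plasma proteins, and the hepatoma line HepG2 keeps much of this secretory activity. When unfolded proteins accumulate in the ER, sensors in its membrane start the unfolded protein response (UPR), in which the transcription factors XBP1 and ATF6 raise genes for protein entry, folding and disposal, while phosphorylation of eIF2α slows translation and favours ATF4.

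HepG2 cells of 1 established line were treated for 10 h, with 4 biological replicates per condition and 24 RNA libraries in all. The 6 groups received bortezomib at 50 nM, nelfinavir at 20 µM, ISRIB at 50 nM, bortezomib with nelfinavir, bortezomib with ISRIB (each at these doses), or the DMSO vehicle. Bortezomib inhibits the proteasome, nelfinavir is an HIV protease inhibitor that also acts on tumour cells, and ISRIB relieves the block on translation that phosphorylated eIF2α sets. The study asked how the latter compounds change the response to bortezomib, so both co-treatments were compared with bortezomib alone, and each single compound with DMSO.

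Promoter sequences are shown for the 4 members that hold the core of the unfolded protein response element, a motif that XBP1 and ATF6 bind, because it is an element through which these factors are known to act. RefSeq promoters (GRCh38.p14, from 250 bases before to 50 after each listed start) were matched for 27 of the 33 members, without *SRPR*, *TRAM1*, *SPCS1*, *RPN1*, *STT3B* and *TUSC3*. The core TGACGTGG, searched on both strands, was found in 4 of these 27 members, in 4 of their 34 listed promoters (11.8%), against 255 of 34943 promoters in all (0.73%). Each stretch of 100 bases is printed 5′ to 3′ on the strand of the gene, and capitals mark the motif, which lies on the opposite strand in all 4.
SSR3, chr3:156554126-156554225, minus strand: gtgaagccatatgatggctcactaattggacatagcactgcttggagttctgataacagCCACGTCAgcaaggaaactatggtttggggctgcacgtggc
SSR4, chrX:153794493-153794592, plus strand: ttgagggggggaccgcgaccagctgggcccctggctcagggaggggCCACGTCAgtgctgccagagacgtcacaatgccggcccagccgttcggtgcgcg
SEC62, chr3:169966707-169966806, plus strand: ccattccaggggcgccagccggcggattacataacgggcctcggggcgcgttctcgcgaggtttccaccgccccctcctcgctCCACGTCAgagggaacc
SRP19, chr5:112861129-112861228, plus strand: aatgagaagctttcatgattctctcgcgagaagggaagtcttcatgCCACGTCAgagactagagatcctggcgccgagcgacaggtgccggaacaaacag

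The motif begins 41 bases before the start in *SSR3*, 129 in *SSR4*, 17 in *SEC62* and 112 in *SRP19*, and it lies before 1 of the 3 listed starts of *SSR3* and 1 of the 2 of *SSR4*. Its last 5 letters, read on the other strand, are CCACG, which was found in 18 of the 27 members, in 61.8% of their promoters and in 38.1% of all. The CCAAT box (CCAAT) was found in 16 members, in 55.9% of their promoters and in 34.6% of all. The full ER stress elements, ERSE (CCAAT and CCACG with 9 bases between them) and ERSE-II (ATTGG and CCACG with 1 base between them), were found in 0 members and in 0.0773% and 0.0544% of all promoters. Both contain the CCACG counted above. The cyclic AMP response element (TGACGTCA) was found in 0 members and in 1.84% of all promoters. The composite site of C/EBP and ATF factors (TGATGNAAN) was found in 1 member, *SRPRB*, in 2.94% of member promoters and in 3.62% of all. A match is a description of the letters and not evidence of binding.

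The libraries held between 5154533 and 6943164 counts, and levels are given as CPM, a gene's counts relative to the scaled size of its library. Because the reads come from the 3′ ends of transcripts, levels were compared between groups for each gene and not between genes. Mitochondrially encoded genes took 20% to 23.1% of the counts in DMSO, 32.8% to 35.5% in bortezomib, 24.9% to 29.6% in bortezomib with nelfinavir and 32.6% to 40.2% in bortezomib with ISRIB. The hepatocyte and hepatoma markers *ALB* and *AFP* averaged 3320 and 3010 CPM in DMSO, while the markers of other cells *COL1A1* and *KRT7* had 0 counts there and *LYZ* averaged 374 CPM.

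Libraries of 1 group were spread along the first component of the residual variation, which was computed over 7858 genes other than the members and held 29.6% of that variation. Scores above 0.1 were found in 5 libraries, called high-score libraries here: ISRIB replicate 3 (0.146), nelfinavir replicate 3 (0.171), bortezomib with nelfinavir replicates 3 and 4 (0.417 and 0.302) and bortezomib with ISRIB replicate 3 (0.512). Scores below −0.1 were found in 5 others, the low-score libraries: nelfinavir replicate 2 (−0.152), bortezomib with nelfinavir replicates 1 and 2 (−0.324 and −0.395) and bortezomib with ISRIB replicates 1 and 4 (−0.148 and −0.269). Bortezomib with nelfinavir was thus split 2 against 2, and which end departs from the rest cannot be told apart, so results are given without either end. All DMSO and bortezomib libraries had scores between −0.047 and 0.078. Among the members, 11 went down with this component at a correlation below −0.7 over the 24 libraries, a range that held 9.9% of the 7858 genes. These were *SEC61B* at −0.973, *TRAM1*, *SRP19*, *SRPR*, *SRP9*, *SPCS2*, *RPN1*, *SEC62*, *SEC61G*, *SPCS1* and *OSTC*, and *SRP14* was the 1 member above 0.7. The points share their libraries and scaling, and the correlations are a description. The plot of the component sets *SEC61B* beside *SSR3*.

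**Figure D1:**
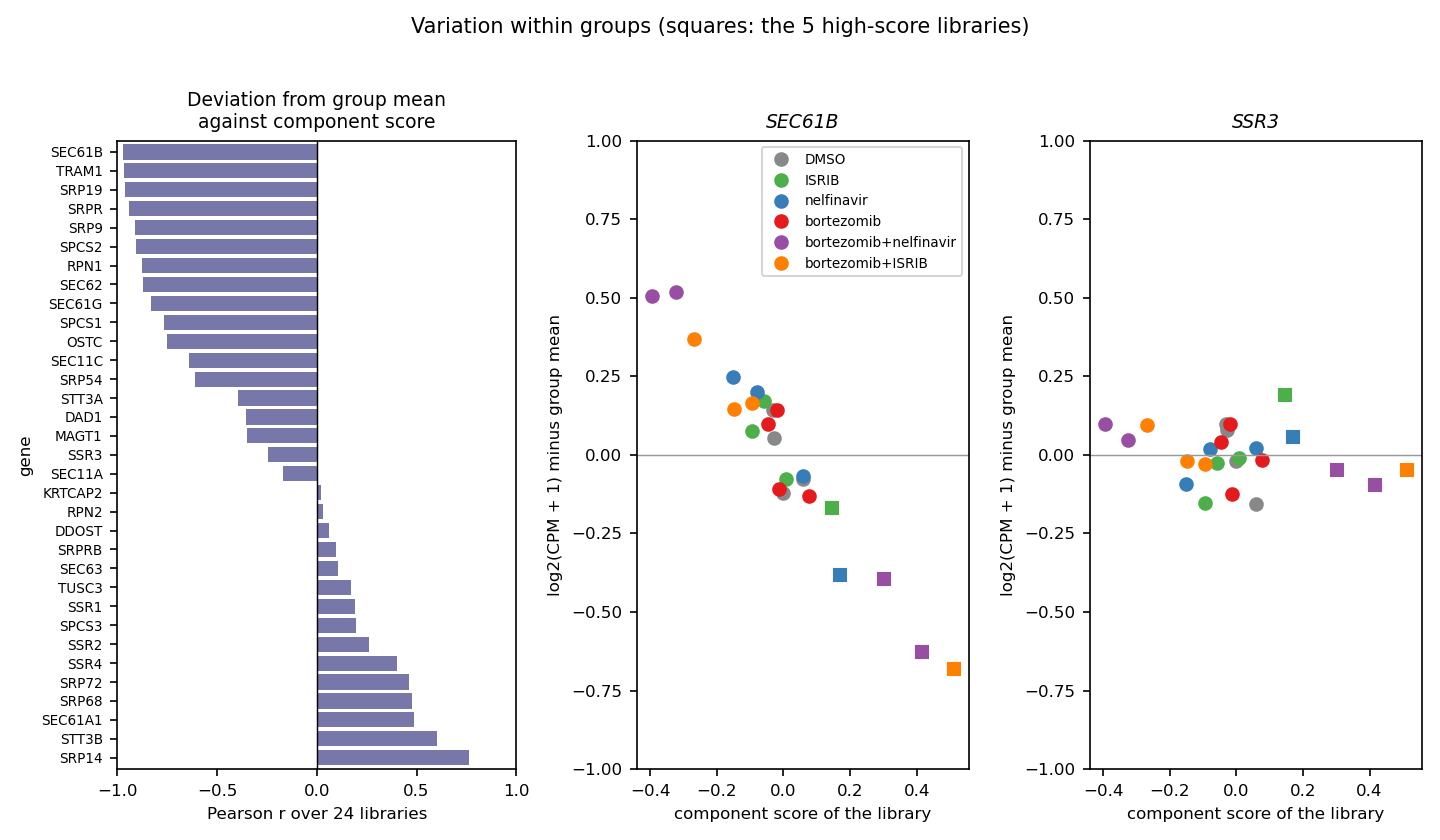
Left, Pearson correlation, over 24 libraries, of each member's deviation from its group mean in log2(CPM + 1) with the library's component score. Middle and right, these deviations for SEC61B and SSR3 in each library, coloured by treatment, with squares for the high-score libraries. SEC61B fell along the component (r = −0.973) and SSR3 had r = −0.247.

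Bortezomib alone moved the members in both directions. At an adjusted p under 0.05, 9 of the 33 were called higher in bortezomib and 10 lower, against 27.6% and 25.8% of all 12685 genes, so the share called lay close to the background. The 9 include *TUSC3*, which had to differ to be tested. All 4 bortezomib libraries lay above all DMSO libraries in 8 members and below them in 11, against 25.6% and 24.4% of all genes. Of the SRP genes 2 were higher and 1 lower, of the receptor genes 2 were higher, of the channel and its partners 3 were higher, of TRAP 3 were lower, and of signal peptidase and of oligosaccharyltransferase 1 was higher and 3 were lower in each. The median log2 fold change was 0.13 over the members and 0.00 over all genes tested. These directions are relative to the typical gene: with library totals alone as the scaling, the median of all genes moved to −0.49, 11.7% of all genes were called higher and 49.2% lower, and among the members 1 was called higher and 20 lower. The members together took 0.55% ± 0.0124 of the counts in DMSO and 0.395% ± 0.0168 in bortezomib (SD, n = 4), and 0.701% ± 0.016 and 0.596% ± 0.0159 of the counts outside mitochondrially encoded genes. In bulk RNA, less RNA in every cell and fewer cells that make it cannot be told apart.

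The largest falls with bortezomib were in *DAD1*, *SEC11C*, *SPCS1* and *SRP9*. *DAD1* (chromosome 14 of GRCh37, 23033807 to 23058130, minus strand), a small subunit of oligosaccharyltransferase, was at 69.8, 77, 84.2 and 90.9 CPM in DMSO and at 44.9, 37.4, 41.4 and 45.4 CPM in bortezomib. All 4 bortezomib libraries lay below the DMSO range, and the log2 fold change was −0.93 (SE 0.10, adjusted p = 5.93e-10). *SEC11C* (chromosome 18, 56807098 to 56826064, plus strand), a catalytic subunit of signal peptidase, was at 140, 149, 154 and 159 CPM in DMSO and at 70.8, 108, 84.7 and 75.6 CPM in bortezomib. It too fell without overlap, by 0.83 on the log2 scale (SE 0.12, adjusted p = 1.18e-07). *SPCS1*, a subunit without catalytic role in the same complex, was at 51.3, 56.3, 71.3 and 60.6 CPM in DMSO and at 39.5, 35.7, 37.2 and 38 CPM in bortezomib. Its groups did not overlap either (log2 fold change −0.67, SE 0.15, adjusted p = 0.000167), and its 3′ end is overlapped on the opposite strand by *NEK4*. *SRP9*, which with SRP14 forms the part of SRP that pauses translation, was at 49.2, 44, 48.7 and 53.8 CPM in DMSO and at 32.1, 23.5, 34 and 41.5 CPM in bortezomib. The groups stood apart at a log2 change of −0.58 (SE 0.23, adjusted p = 0.0386), but the call was lost without DMSO replicate 1, 3 or 4 or bortezomib replicate 2 (adjusted p up to 0.0851), and a near copy, *SRP9P1*, shares 141 bases with its 3′ end.

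TRAP fell in 3 of its 4 genes. *SSR3*, the γ subunit (chromosome 3, 156257342 to 156272938, minus strand), was at 326, 359, 385 and 389 CPM in DMSO and at 298, 275, 255 and 287 CPM in bortezomib. *SSR2*, the β subunit (chromosome 1, 155978839 to 155990742, minus strand), was at 123, 127, 125 and 138 CPM and at 101, 90.1, 93.5 and 112 CPM. *SSR1*, the α subunit (chromosome 6, 7268539 to 7347679, minus strand), was at 288, 289, 276 and 292 CPM and at 211, 244, 219 and 227 CPM. In each of the 3, all bortezomib libraries lay below all DMSO libraries, with log2 fold changes of −0.39, −0.37 and −0.35 and adjusted p-values of 8.01e-05, 0.0003 and 0.000125. *SSR4*, the δ subunit, had a log2 change of 0.25 and was not called (adjusted p = 0.108). In signal peptidase *SPCS3* was also called lower, at 86.4, 91.3, 89.4 and 98.9 CPM in DMSO and 77.4, 56.8, 65 and 65.9 CPM in bortezomib (log2 fold change −0.47, SE 0.09, adjusted p = 4.32e-05). In oligosaccharyltransferase, *STT3B*, the catalytic subunit that also glycosylates sites left unmodified during translocation, and *OSTC*, a subunit of the complex built on STT3A, had log2 fold changes of −0.27 and −0.23 (adjusted p = 0.00947 and 0.0178).

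On the higher side, *SRP54*, the subunit that binds the signal peptide, was at 43, 37.6, 45.7 and 45.8 CPM in DMSO and at 58.4, 62.2, 64.8 and 58.1 CPM in bortezomib. The groups did not overlap and the log2 fold change was 0.50 (SE 0.11, adjusted p = 0.00019). With library totals alone it was 0.00. *SRPRB*, the membrane-anchored β subunit of the SRP receptor, was at 131, 156, 146 and 151 CPM in DMSO and at 197, 181, 167 and 188 CPM in bortezomib. *SRPR*, its α subunit, was at 75.4, 74, 75.3 and 74 CPM and at 113, 112, 115 and 106 CPM. Both receptor genes stood higher in all bortezomib libraries, with log2 fold changes of 0.33 and 0.57 (adjusted p = 0.000476 and 0.0321), but with library totals alone that of *SRPRB* turned to −0.17. The call on *SRPR* was lost when any 1 of the 8 libraries was left out (adjusted p up to 0.0798), while without the high-score libraries its adjusted p was 7.82e-08.

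*SEC61A1*, the pore-forming subunit of the channel (chromosome 3, 127770484 to 127790548, plus strand), was at 108, 101, 95.7 and 107 CPM in DMSO and at 128, 112, 116 and 154 CPM in bortezomib. Its log2 fold change of 0.31 (adjusted p = 0.00642) turned to −0.19 with library totals alone and was not called without DMSO replicate 2 or bortezomib replicate 4 (adjusted p = 0.0523 and 0.212). *SEC63*, which couples the channel to the lumenal chaperone BiP, was at 163, 158, 171 and 159 CPM and at 215, 183, 173 and 191 CPM (log2 fold change 0.22, adjusted p = 0.0216). That call was lost without DMSO replicate 2 or 4 or bortezomib replicate 1, 2 or 4 (down to 0.11, adjusted p up to 0.322). *TRAM1* was not called at a log2 change of 0.50, though all bortezomib libraries (193 to 235 CPM) lay above those of DMSO (150 to 157 CPM). It was called with DESeq2, with a replicate block, without a filter on low counts and with edgeR's default filter. It was also called with the compared groups alone, with the component as a covariate and without the high-score or the low-score libraries. In edgeR, none of the other scalings gave a call. The remaining calls on the higher side were *SRP72*, *SEC62* and *SEC11A*, with log2 fold changes of 0.32, 0.24 and 0.28. *SRP72* was not called without bortezomib replicate 4 (0.16, adjusted p = 0.174), *SEC62* without any 1 of the 8 libraries but DMSO replicate 1 (down to 0.13, adjusted p up to 0.286), and *SEC11A* without DMSO replicate 1 or 2 or bortezomib replicate 2, 3 or 4 (adjusted p up to 0.0991). With library totals alone, all of *SEC63*, *SRP72*, *SEC62* and *SEC11A* turned below 0, to between −0.27 and −0.18. Without bortezomib replicate 4, 3 members were called higher in place of 9, and without DMSO replicate 2, 4 were. The 10 members called lower ranged only from 9 to 10 when single libraries were left out.

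*TUSC3* encodes an oxidoreductase subunit of oligosaccharyltransferase and a paralogue of *MAGT1*. It had 0 counts in all 4 DMSO and all 4 ISRIB libraries, 1 count in the nelfinavir libraries together, and 8, 4, 0 and 10 counts in bortezomib. Bortezomib replicate 3 thus overlapped with DMSO, and no p is given for a gene that was tested only because these libraries held it. Pooled over the group its level was 1.15 CPM in bortezomib (95% Poisson interval 0.718 to 1.73), 0.665 CPM in bortezomib with nelfinavir (0.354 to 1.14, from 1, 1, 4 and 7 counts) and 0.608 CPM in bortezomib with ISRIB (0.304 to 1.09, from 2, 2, 2 and 5 counts). The 0 counts of the DMSO group allow a level of up to 0.117 CPM by the same Poisson interval. These intervals cover counting error only.

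**Figure D2:**
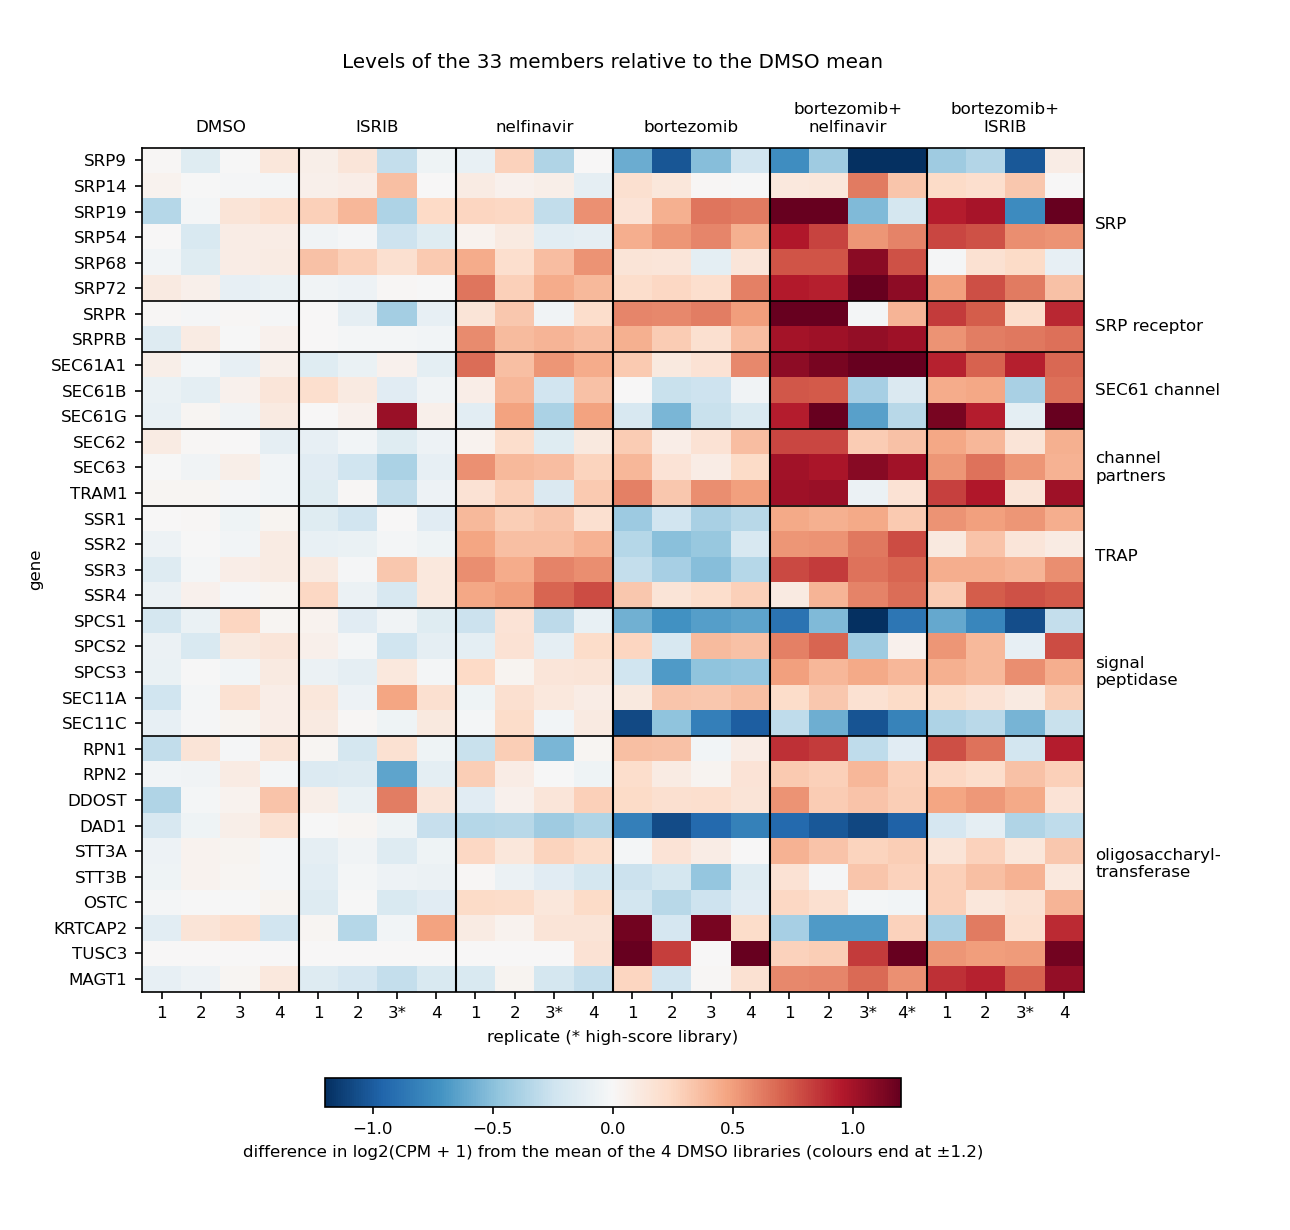
Difference of log2(CPM + 1) from the mean of the 4 DMSO libraries (colour) for the 33 members (lines, grouped by complex) in the 24 libraries (columns, grouped by treatment; asterisks mark the high-score libraries). SSR1, SSR2 and SSR3 lie below DMSO in all bortezomib libraries and above it in both co-treatments, on the TMM scale.

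Nelfinavir alone raised all 4 TRAP genes. In comparison with DMSO, 10 of the 33 members were called higher and 1 lower, against 10.4% and 8.83% of all genes, with a median log2 fold change of 0.17 over the members and 0.01 over all genes. Of the 4 members whose promoter stretches are printed above, *SSR3* and *SSR4* were called and *SEC62* and *SRP19* were not. *SSR4* was at 28.8, 31.5, 30.1 and 30.9 CPM in DMSO and at 42.3, 43.2, 49.8 and 52.7 CPM in nelfinavir (log2 fold change 0.63, SE 0.13, adjusted p = 0.000234). *SSR3* reached 537, 496, 551 and 536 CPM (log2 fold change 0.54, SE 0.08, adjusted p = 1.37e-06). *SSR1* and *SSR2* had log2 fold changes of 0.30 and 0.41 and, like the other TRAP genes, did not overlap with DMSO.

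Outside TRAP, nelfinavir raised the pore subunit *SEC61A1* to 164, 133, 149 and 140 CPM, a log2 change of 0.51 (SE 0.09, adjusted p = 7.61e-05), with all libraries above those of DMSO. *SRP72*, a scaffold protein of SRP, stood at 190, 184, 164 and 167 CPM in DMSO and at 275, 214, 240 and 231 CPM in nelfinavir (log2 fold change 0.45, adjusted p = 0.000465), and *SRP68*, its partner in the particle, had a log2 change of 0.40. *SRPRB*, at 217, 190, 193 and 189 CPM, rose by 0.43 (adjusted p = 3.69e-05), and *SEC63*, at 238, 214, 210 and 196 CPM, rose by 0.40 (adjusted p = 0.000343), both on the log2 scale. *STT3A*, the catalytic subunit that acts during translocation, had a log2 change of 0.22 (adjusted p = 0.0486) that was not called without any 1 of 7 of the 8 libraries (adjusted p up to 0.137), nelfinavir replicate 2 being the exception, nor without the high-score libraries (adjusted p = 0.063). Its 3′ end is overlapped on the same strand by *CHEK1*. *DAD1* fell instead, at 63, 63.6, 59.4 and 62.3 CPM, below all DMSO libraries (log2 fold change −0.37, SE 0.10, adjusted p = 0.00509). Of the 5 signal peptidase genes, 0 were called, with log2 fold changes between −0.13 and 0.14. Without the high-score libraries 14 members were called higher and 1 lower, against 11% and 10% of all genes. Without the low-score libraries 10 were higher and 1 lower. Those are the counts found with all libraries, where the shares over all genes were 10.4% and 8.83%.

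With ISRIB alone, 0 of the 33 members and 0.00% of all 12685 genes were called in edgeR's quasi-likelihood test. DESeq2 also called 0 members, and 1 gene higher and 18 lower in all. At an unadjusted p under 0.05 there were 5 members, *SRP68*, *SEC63*, *SEC11A*, *RPN2* and *MAGT1*, and 5.56% of all genes. Log2 fold changes of the members lay between −0.26 (*RPN2*) and 0.36 (*SEC61G*). The value of *SEC61G* rested on the high-score library, at 231 CPM, while the others were at 112, 116 and 116 CPM.

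Adding nelfinavir to bortezomib raised members of all 7 complexes or classes. In comparison with bortezomib alone, 14 were called higher and 1 lower, against 15.5% and 13.3% of all genes. All co-treated libraries lay above all bortezomib libraries in 15 members and below them in 0, against 12.4% and 9.11% of all genes. The median log2 fold change was 0.29 over the members and −0.02 over all genes. The comparison shares its bortezomib libraries with that of bortezomib and DMSO, so a low value in them pushes both in opposite directions. *SSR3* stood at 630, 652, 571 and 590 CPM, *SSR2* at 186, 186, 200 and 221 CPM and *SSR1* at 393, 384, 393 and 357 CPM with both compounds. All of these libraries lay above all bortezomib libraries and also above all DMSO libraries. The log2 fold changes against bortezomib were 1.13 for *SSR3* (SE 0.08, adjusted p = 3.35e-14), 1.00 for *SSR2* (SE 0.09, adjusted p = 5.35e-12) and 0.76 for *SSR1* (SE 0.07, adjusted p = 1.99e-10). *SSR4* was at 32.7, 40.4, 46.1 and 49 CPM and was not called (log2 fold change 0.23, adjusted p = 0.207). Of the members with printed promoter stretches, *SSR3* and *SEC62* were called higher here. With bortezomib alone against DMSO, *SSR3* was called lower and *SEC62* higher. With ISRIB added to bortezomib, *SSR3* and *SSR4* were called higher.

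Among the channel genes, *SEC61A1* rose to 217, 227, 265 and 245 CPM (log2 fold change 0.91, SE 0.10, adjusted p = 1.24e-09). *SEC63* stood at 329, 321, 348 and 328 CPM, a log2 change of 0.80 (SE 0.08, adjusted p = 8.97e-10), with the groups apart in both genes. *SEC62*, which assists the insertion of short chains, was at 362, 311, 331 and 379 CPM in bortezomib and at 512, 512, 362 and 373 CPM with nelfinavir added. Its log2 fold change was 0.35 (adjusted p = 0.00667), the groups overlapped, and the 2 lower values came from the high-score libraries. Without the low-score libraries the call was lost (0.14, adjusted p = 0.281).

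In the targeting step, *SRPRB* rose to 292, 296, 305 and 297 CPM (log2 fold change 0.70, SE 0.08, adjusted p = 3.7e-09). *SRP68* was at 72, 71.5, 59.3 and 71.3 CPM in bortezomib and at 110, 109, 138 and 110 CPM with nelfinavir added, and *SRP72* reached 341, 337, 405 and 372 CPM. Neither SRP gene overlapped between the groups, at log2 fold changes of 0.77 and 0.72 (adjusted p = 2.04e-07 and 1.63e-07). In signal peptidase, *SPCS3* (chromosome 4, 177241117 to 177253396, plus strand) rose to 129, 121, 125 and 120 CPM, a log2 change of 0.90 (SE 0.09, adjusted p = 6.51e-10). The catalytic genes of that complex were not called, with log2 fold changes of −0.04 for *SEC11A* and 0.17 for *SEC11C*.

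In oligosaccharyltransferase, *MAGT1* (chromosome X, 77081244 to 77154768, minus strand), an oxidoreductase subunit of the complex built on STT3B, was at 71.8, 50.8, 60.4 and 68 CPM in bortezomib and at 89.8, 90.1, 96.2 and 87.8 CPM with nelfinavir added. Its groups stood apart (log2 fold change 0.54, SE 0.10, adjusted p = 0.000114). *STT3B* reached 151, 133, 169 and 162 CPM (log2 fold change 0.47, SE 0.09, adjusted p = 7.72e-05), and *OSTC* and *STT3A* had log2 fold changes of 0.33 and 0.27. The call on *STT3A* was lost with the compared groups alone (adjusted p = 0.0858) and at the threshold of an adjusted p under 0.01. *DAD1* remained at 41.4, 39, 36.9 and 40.5 CPM, which overlapped with bortezomib (log2 fold change −0.10, 95% confidence interval −0.33 to 0.13). *KRTCAP2*, another small subunit, was the 1 member called lower (log2 fold change −2.31, adjusted p = 0.0302), from 12, 2, 12 and 4 counts to 1, 0, 0 and 5 counts. At this depth the pooled levels were 1.56 CPM (95% Poisson interval 1.05 to 2.23) and 0.307 CPM (0.113 to 0.668), which covers counting error only. The call was lost without the low-score libraries (adjusted p = 0.189), and also without bortezomib replicate 1 or 3 or replicate 1, 2 or 3 of the co-treatment (adjusted p up to 0.104), and the last 500 bases of the gene have an identical copy elsewhere in the annotation.

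This comparison held the widest spread of scores, with 2 high-score and 2 low-score libraries in the co-treated group. *SEC61G*, the γ subunit of the channel, was at 97.5, 76, 92.7 and 98.3 CPM in bortezomib and at 216, 278, 70.7 and 88.5 CPM with nelfinavir added, and *SEC61B*, the β subunit, was at 161, 133, 135 and 156 CPM and at 269, 267, 121 and 142 CPM. In both genes replicates 1 and 2 of the co-treatment were above all bortezomib libraries and replicates 3 and 4 were not, and neither gene was called (adjusted p = 0.118 and 0.175). With the high-score libraries left out, which leaves replicates 1 and 2, 23 members were called higher in place of 14, against 14.2% of all genes, and the log2 fold changes were 1.45 for *SEC61G* and 0.88 for *SEC61B*. *SRP19*, *SRPR*, *TRAM1*, *RPN1*, *SPCS2*, *SRP54* and *SEC11C* were the other members added. With the low-score libraries left out, which leaves replicates 3 and 4, 15 were called higher and 2 lower, against 17.2% and 12.9% of all genes. With the component as a covariate, 17 were called higher and 2 lower, against 17.7% and 17.2% of all genes, and *SEC61B* was at 0.36 (adjusted p = 5.96e-05). That covariate was taken from residuals of the same libraries, so p-values under it are too small. *SSR1*, *SSR2*, *SSR3*, *SPCS3*, *SEC61A1*, *SEC63*, *SRPRB*, *SRP68*, *SRP72*, *STT3A*, *STT3B*, *OSTC* and *MAGT1* were called higher under all 3 alternatives.

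**Figure D3:**
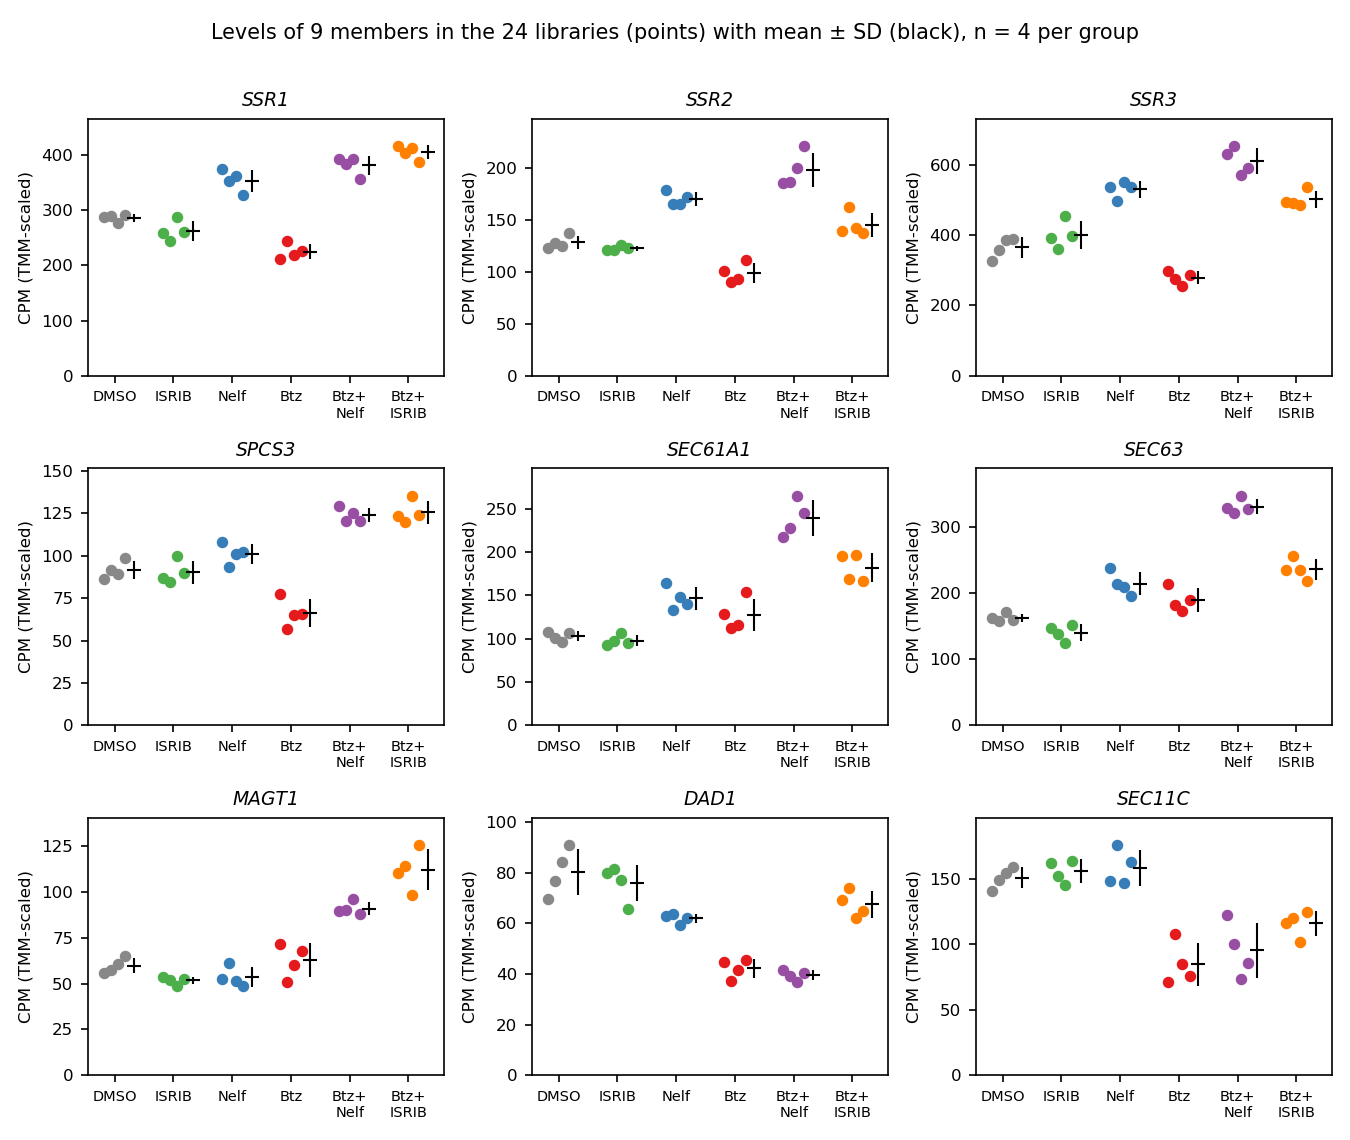
TMM-scaled CPM of 9 members in each of the 24 libraries (points, coloured by treatment), with the mean and SD of each group of 4 (black). In SSR3 the bortezomib libraries (255 to 298 CPM) lie below all others, and in DAD1 bortezomib with nelfinavir (36.9 to 41.4 CPM) and with ISRIB (62.1 to 74.1 CPM) do not overlap.

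Adding ISRIB to bortezomib likewise raised 14 members, with 0 called lower, against 6.89% and 5.40% of all genes. All co-treated libraries lay above those of bortezomib in 12 members and below them in 0, against 6.49% and 5.99% of all genes. The median log2 fold change was 0.29 over the members and 0.01 over all genes. All 4 TRAP genes were called. *SSR1* stood at 416, 403, 413 and 388 CPM (log2 fold change 0.85, SE 0.07, adjusted p = 3.57e-11) and *SSR3* at 494, 491, 484 and 535 CPM (log2 fold change 0.84, SE 0.08, adjusted p = 2.34e-10). *SSR2* was at 139, 163, 142 and 138 CPM (log2 fold change 0.55, SE 0.09, adjusted p = 1.06e-05). In these 3 genes the co-treated libraries lay above all bortezomib libraries. *SSR4*, at 37.6, 50.9, 52.2 and 51.1 CPM, overlapped with bortezomib (38.1, 33.7, 35.3 and 37.2 CPM). Its call (log2 fold change 0.41, adjusted p = 0.0336) was lost when any 1 of the 8 libraries but replicate 1 of the co-treatment was left out (adjusted p up to 0.0936).

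The gene with the smallest p in signal peptidase was again *SPCS3*, at 123, 120, 135 and 124 CPM (log2 fold change 0.92, SE 0.09, adjusted p = 1.04e-09). *SEC11C* was at 117, 120, 102 and 125 CPM and was called as well (log2 fold change 0.45, SE 0.12, adjusted p = 0.00834), though bortezomib replicate 2, at 108 CPM, overlapped with it. In oligosaccharyltransferase *MAGT1* rose to 111, 114, 98.5 and 126 CPM (log2 fold change 0.84, SE 0.10, adjusted p = 1.42e-07). *DAD1* rose to 69.4, 74.1, 62.1 and 64.9 CPM, a log2 change of 0.68 (SE 0.11, adjusted p = 1.14e-05), with all libraries above those of bortezomib. *STT3B*, at 163, 172, 178 and 146 CPM, and *OSTC*, at 163, 146, 151 and 177 CPM, were called too, with log2 fold changes of 0.57 and 0.49.

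In the channel, *SEC61A1* rose to 196, 169, 197 and 166 CPM (log2 fold change 0.51, SE 0.10, adjusted p = 0.000191). *SEC61G* was at 247, 216, 103 and 276 CPM, all above bortezomib, and had the largest log2 fold change of the called members, 1.21 (SE 0.39, adjusted p = 0.0495). That call was lost when any 1 of 7 of the 8 libraries was left out (adjusted p up to 0.119), with a replicate block (adjusted p = 0.0748), with library totals alone, with TMM computed without mitochondrially encoded or the most counted genes, with the compared groups alone, and without the low-score libraries (0.80, adjusted p = 0.156), whereas without the high-score libraries its log2 fold change was 1.43 (adjusted p = 1.75e-10). *SEC63* and *SRPRB*, at 235, 256, 236 and 218 CPM and at 213, 224, 226 and 232 CPM, had log2 fold changes of 0.31 and 0.29 (adjusted p = 0.0091 and 0.0099). Both calls were lost without bortezomib replicate 3 (adjusted p = 0.0567 and 0.0641), and that of *SEC63* also without replicate 2 of the co-treatment (adjusted p = 0.0532). *SRP72*, which had the smallest p among the 6 SRP genes, was at 248, 301, 272 and 225 CPM with ISRIB added and overlapped with bortezomib (log2 fold change 0.25, adjusted p = 0.0859). Of these 6 genes, 0 were called, with log2 fold changes between −0.01 and 0.38. Without the high-score libraries 19 members were called higher, against 8.39% of all genes, without the low-score libraries 14, against 5.85%, and with the component as a covariate 18, against 9.29%.

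**Figure D4:**
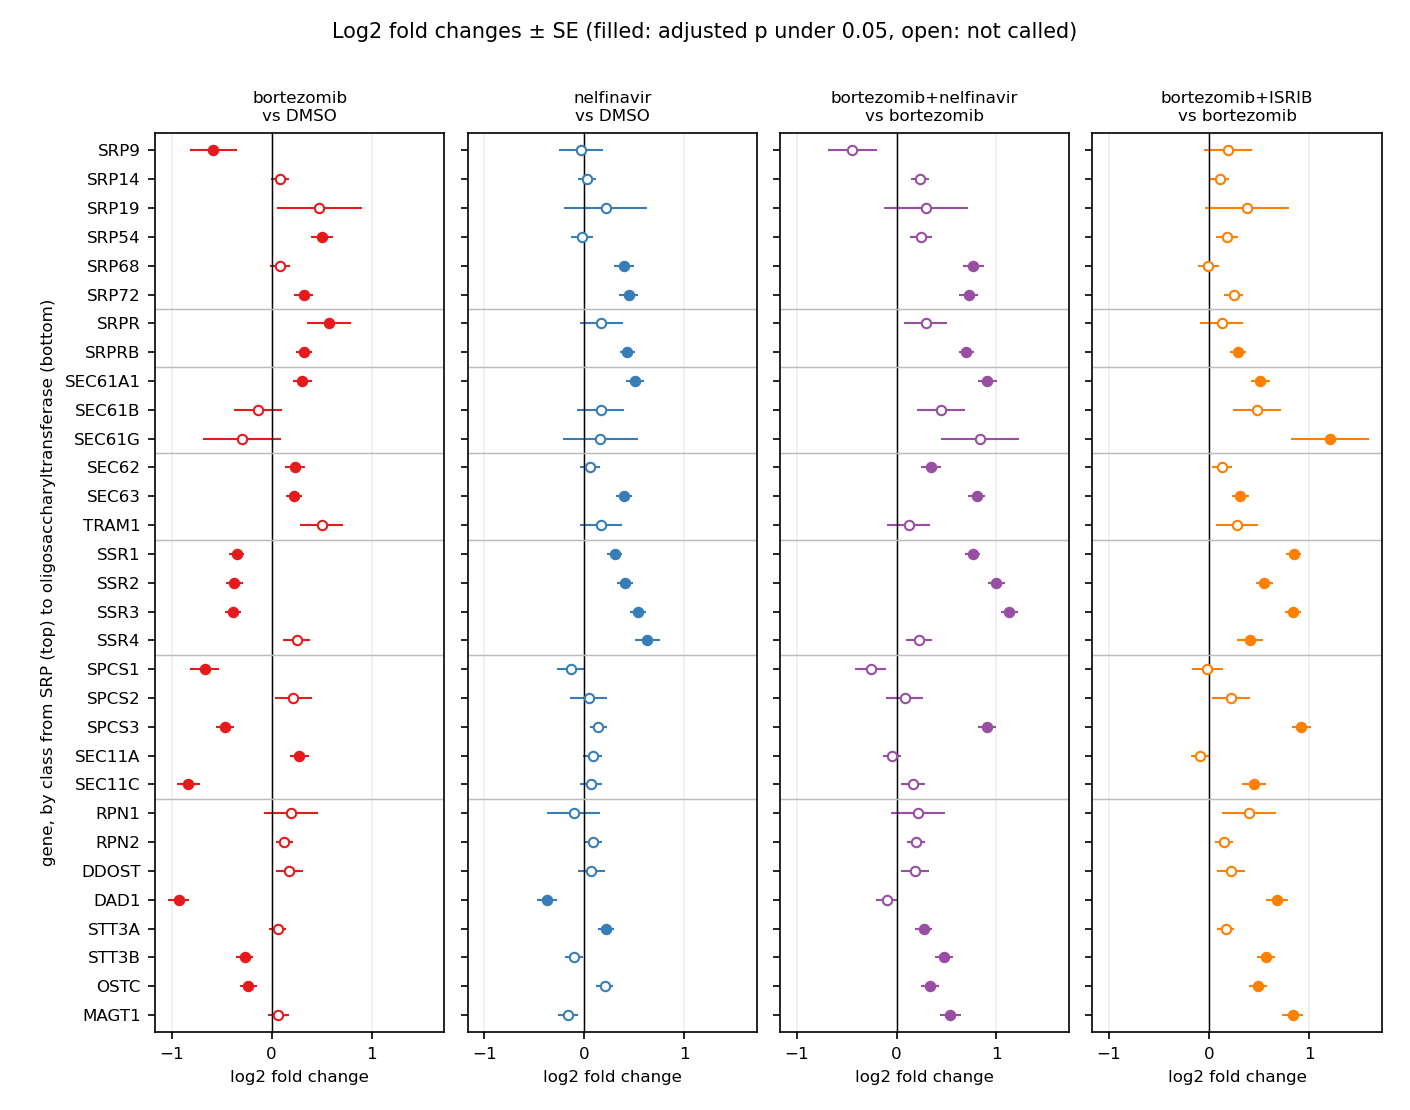
Log2 fold changes with SE for 31 members in 4 comparisons, filled where the adjusted p was under 0.05. TUSC3 and KRTCAP2, both near or under 1 CPM, are left out. SSR1, SSR2 and SSR3 lie on the left against DMSO and on the right in both comparisons with bortezomib, which share the bortezomib libraries. With library totals alone the bortezomib panel moves to the left by about 0.49, and SRP72, SRPRB, SEC61A1, SEC62, SEC63 and SEC11A turn below 0.

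Compared directly, bortezomib with nelfinavir stood above bortezomib with ISRIB in 7 members and below it in 2, against 13.2% and 11.2% of all genes. The groups did not overlap in 7 members above and 2 below, against 10.6% and 7.62%. Among the members called higher *SRP68* differed most, at 110, 109, 138 and 110 CPM with nelfinavir and at 63.6, 73, 76 and 59.9 CPM with ISRIB (log2 difference 0.78, SE 0.10, adjusted p = 2.28e-07). *SEC63*, *SRP72* and *SSR2* had log2 differences of 0.49, 0.48 and 0.45, with no overlap between the groups. *SRPRB*, *SEC61A1* and *SSR3* had log2 differences of 0.41, 0.39 and 0.28. *DAD1* was lower with nelfinavir in every library, a log2 difference of −0.78 (SE 0.11, adjusted p = 4.46e-07). *MAGT1* was also lower, by −0.30 (adjusted p = 0.0255), but this call was lost when any of 6 of the 8 libraries was left out (adjusted p up to 0.193), replicate 3 of each co-treatment being the exceptions, and without the low-score libraries (−0.15, adjusted p = 0.48). For *SSR1* and *SPCS3* the log2 differences were −0.09 (95% confidence interval −0.24 to 0.07) and −0.02 (−0.21 to 0.17). The member median was −0.03 and that of all genes −0.02.

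The difference between the effect of each compound with and without bortezomib was tested as an interaction. For nelfinavir, 8 members were called higher and 0 lower, against 9.85% and 9.96% of all genes. *SPCS3* had the largest of these interactions, 0.76 (SE 0.13, adjusted p = 2.38e-05), as it rose with nelfinavir by 0.90 on the log2 scale in the presence of bortezomib and had a log2 change of 0.14 without it (adjusted p = 0.296). *MAGT1* had an interaction of 0.70, *SSR2* and *SSR3* of 0.59 each, *STT3B* of 0.57, *SSR1* of 0.46, and *SEC63* and *SEC61A1* of 0.40 each. That of *SEC61A1* (adjusted p = 0.0311) was not called without DMSO replicate 1 or 4 or nelfinavir replicate 2 or 4 (adjusted p up to 0.074), nor without the high-score libraries (0.31, adjusted p = 0.102). *SRP72*, *SRP68* and *SRPRB*, which were called higher with nelfinavir both with and without bortezomib, had interactions of 0.28, 0.37 and 0.27 that were not called (adjusted p between 0.0601 and 0.148). Without the high-score libraries 13 members were called higher and 1, *SSR4*, lower, against 10.1% and 9.22% of all genes, and without the low-score libraries 11 were higher and 1, *SRP9*, lower, against 11.1% and 9.88%.

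For ISRIB, 11 members were called higher and 0 lower, against 3.07% and 1.99% of all genes. *MAGT1* had an interaction of 1.05 (SE 0.15, adjusted p = 4.88e-06), *SSR1* of 0.97 (SE 0.10, adjusted p = 1.9e-08) and *SPCS3* of 0.94 (SE 0.13, adjusted p = 3.11e-06). *DAD1* had one of 0.76, *SSR3* of 0.71, *STT3B* of 0.64, *SSR2* of 0.62, *OSTC* of 0.61, *SEC61A1* of 0.59, *SEC63* of 0.52 and *RPN2* of 0.40. The call on *RPN2*, which encodes a non-catalytic oligosaccharyltransferase subunit, was lost when any of 14 of the 16 libraries was left out (adjusted p up to 0.127). ISRIB replicate 3, a high-score library, held *RPN2* at 326 CPM while the other ISRIB libraries were at 453 to 467 CPM, and without the high-score libraries the interaction was 0.25 (adjusted p = 0.114). Without those libraries 15 members were called higher, against 4.43% of all genes, and without the low-score libraries 10, against 3.01%.

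Paralogous subunits were also compared as count ratios within each library, which do not depend on the scaling between libraries. The log2 ratio of *SEC11C* to *SEC11A*, the alternative catalytic subunits of signal peptidase, was −0.95 ± 0.116 in DMSO, −2.08 ± 0.227 in bortezomib, −1.88 ± 0.297 with nelfinavir added and −1.53 ± 0.0678 with ISRIB added (SD, n = 4). All bortezomib libraries lay below all DMSO libraries (difference −1.13, two-sided exact permutation p = 0.0286), and all libraries with ISRIB added lay above those with bortezomib alone (difference 0.55, exact permutation p = 0.0286). The log2 ratio of *STT3B* to *STT3A* was 0.38 ± 0.00911 in DMSO, 0.04 ± 0.176 in bortezomib and 0.06 ± 0.12 in nelfinavir (SD, n = 4). Both groups lay below DMSO without overlap (differences −0.33 and −0.32, exact permutation p = 0.0286 each). That is the smallest p that 4 libraries against 4 allow, and after adjustment over 18 tests, of 3 ratios in 6 comparisons each, all of these were at 0.0858. The third ratio, *MAGT1* to *TUSC3*, is not described because *TUSC3* had 0 counts in most libraries without bortezomib, so that its value depends on the count added.

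**Figure D5:**
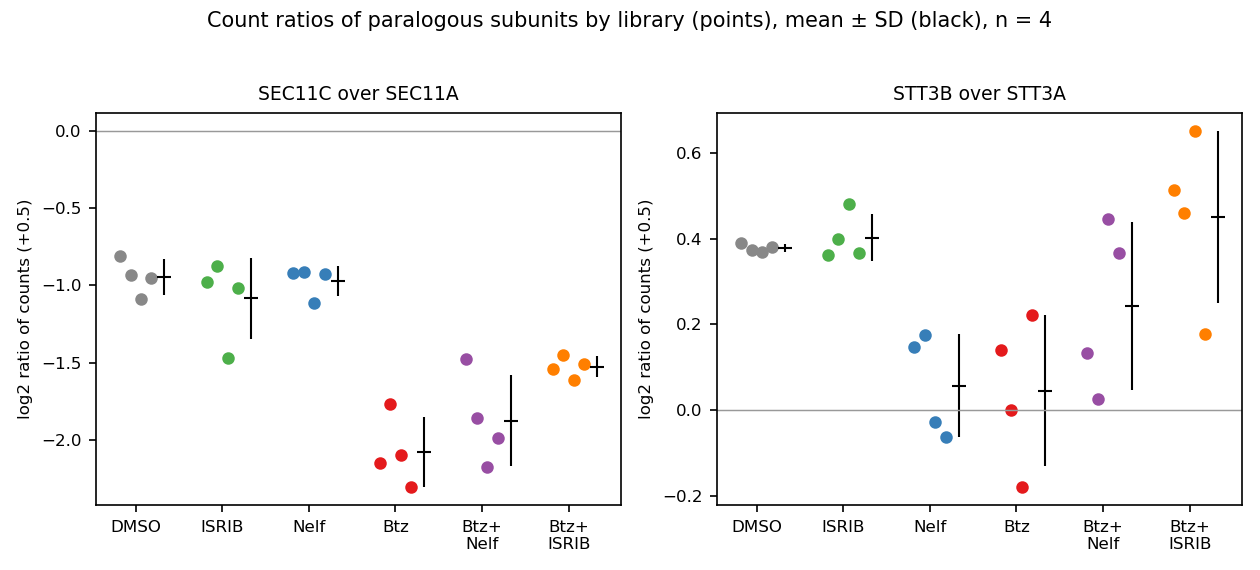
Log2 ratio of counts (with 0.5 added) of SEC11C to SEC11A and of STT3B to STT3A in each library (points, by treatment) with mean and SD (black, n = 4). The SEC11C to SEC11A ratio lies between −2.30 and −1.77 in bortezomib and between −1.09 and −0.81 in DMSO.

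Neighbouring steps of the pathway gave a reference for the members. Their lists were written from general knowledge, but when earlier results of these data were known. Over all genes, 15.5% were called higher and 13.3% lower with nelfinavir added to bortezomib, and 6.89% and 5.40% with ISRIB added. These shares are the background for each list below. Of 12 lumenal chaperone and UPR genes, 11 were called higher and 1 lower when nelfinavir was added to bortezomib (median log2 fold change 1.39), and 10 higher and 1 lower when ISRIB was added (median 1.28). *HSPA5*, which encodes the lumenal chaperone BiP, was at 2280, 2150, 1900 and 2200 CPM in bortezomib, at 11500, 12300, 16900 and 12900 CPM with nelfinavir added and at 9760, 10200, 11300 and 8790 CPM with ISRIB added. The 4 libraries of each co-treatment lay above all bortezomib libraries. Those log2 fold changes, 2.65 and 2.23, were larger than that of any member called higher in the same comparisons. With bortezomib alone 6 of the 12 were called higher and 2 lower (2 higher and 5 lower with library totals alone), and with nelfinavir alone 1 higher and 2 lower. The shares over all genes were 27.6% and 25.8% with bortezomib alone, and 10.4% and 8.83% with nelfinavir alone. In nelfinavir the chaperone gene *HYOU1* had a log2 change of 0.46 (adjusted p = 0.00131) and *SDF2L1*, whose product acts with BiP, of −0.44 (adjusted p = 0.0184).

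*HM13*, which encodes the signal peptide peptidase that cleaves the spent signal peptide, was at 138, 140, 120 and 135 CPM in bortezomib, at 282, 276, 327 and 302 CPM with nelfinavir added and at 197, 215, 246 and 157 CPM with ISRIB added. It was called in both (log2 fold changes 1.16 and 0.62) and was the 1 gene called of the 3 tested in its list. Of 23 genes for the synthesis of the lipid-linked glycan that oligosaccharyltransferase consumes, 4 were called higher and 6 lower with nelfinavir added to bortezomib, and 1 higher and 0 lower with ISRIB added. Of 9 tested genes of the ER membrane complex, an insertase for membrane proteins, 2 were called higher and 2 lower with nelfinavir added and 1 higher with ISRIB added. Of 5 genes of the GPI transamidase, which attaches lipid anchors to proteins in the same membrane, 0 were called higher and 4 lower with nelfinavir added, and 1 was lower with ISRIB added. *PIGS* was the gene called with ISRIB added and 1 of the 4 called with nelfinavir added, with log2 fold changes of −0.34 and −0.43. Of 7 genes of the multipass translocon, 0 were called higher in either co-treatment, and 1 was called lower with nelfinavir added. Of 6 tested genes for the insertion of tail-anchored proteins, 1 was called higher and 1 lower with nelfinavir added and 0 with ISRIB added, and of 5 genes for glycan trimming and the folding check 1 was higher with nelfinavir added and 0 were called with ISRIB added. Of the 4 subunits outside the set, *SEC61A2*, *TRAM2*, *TMEM258* and *OST4*, 0 were called in either co-treatment. Without the high-score libraries, the genes called with nelfinavir added were 2 higher and 0 lower in the ER membrane complex and 0 higher and 2 lower in the GPI transamidase, and *OST4*, *TMCO1* and *GANAB* were called with ISRIB added, as were 3 genes of lipid-linked glycan synthesis. Without the low-score libraries, 1 of the subunits outside the set was higher and 2 lower with nelfinavir added. Against DMSO, bortezomib raised 3 of the 7 multipass genes and lowered 1 (2 higher and 2 lower with library totals alone). *CCDC47* was among those raised, with a log2 change of 1.02. Bortezomib raised 4 of the 6 tail-anchor genes and lowered 2 (1 higher and 2 lower with library totals alone). Lipid-linked glycan synthesis had 5 genes higher and 7 lower, the ER membrane complex 3 and 2 and the GPI transamidase 2 and 1. Glycan trimming and the folding check had 2 higher and 1 lower. The list of *HM13* and the 4 subunits outside the set had 0 higher and 1 lower each. The shares over all genes were 27.6% higher and 25.8% lower, and 11.7% and 49.2% with library totals alone.

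Reads of a few members may be shared with other genes, since the strand setting of the counting is not given in the sources used here. Within the last 500 bases, *SRP19*, *SRPR*, *SRPRB*, *SEC61A1* and *SPCS1* are overlapped by a counted gene on the opposite strand, and *DDOST* and *STT3A* by one on the same strand. *KRTCAP2*, *SEC63*, *SPCS2*, *SRP14*, *SRP19* and *SRP9* have near copies of at least 80 aligned bases with at least 97% identity, none of them among the counted genes. The match found for *DDOST* is *PINK1-AS*, the counted gene that overlaps it. Levels of all these genes are uncertain to the extent that reads were split. *SSR1*, *SSR2*, *SSR3*, *SSR4*, *SPCS3*, *SEC11C*, *DAD1*, *STT3B*, *OSTC* and *MAGT1* had neither.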

How the data were processed

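Counts per gene were deposited by the authors, unnormalized, for 18915 genes in 24 libraries. Per the labels and the study's methods, QuantSeq 3′ mRNA-Seq (FWD) libraries were read as 80 bp single ends, trimmed by cutadapt 2.8 and run through nf-core's RNA-Seq pipeline, with STAR as aligner and hg19 as genome. Ensembl GRCh37 genes of the types protein coding, lincRNA and antisense were counted. The counter, whether strand was used and whether molecular identifiers were collapsed are not stated in these sources. Intervals on single counts therefore cover counting error only.

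Genes were kept with edgeR's filterByExpr (at least 5 counts, 25 in total). CPM was scaled by the trimmed mean of M-values (TMM). The quasi-likelihood test of edgeR 4.0.16 (R 4.3.3) was run with all 24 libraries in 1 model, a coefficient per group and Benjamini-Hochberg adjustment over all 12685 genes. An adjusted p under 0.05 made a call, the SE was taken as the absolute log2 fold change over the square root of F, and 95% intervals used 18 residual degrees of freedom. Ratios of paralogues were tested with two-sided exact permutation tests. The replicates are biological by the labels, no pair of libraries was closer than sampling noise (lowest chi-square per degree of freedom 2.144), and groups were compared as unpaired. Total counts ran from 5154533 to 6943164 per library, which limits genes near 1 CPM to a few counts each.

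Gene models came from GENCODE on GRCh37, near copies from BLAST 2.17.0 and promoters from RefSeq on GRCh38.p14. The members and lists were chosen with earlier results of these data known. Values in every library were given for called members with the largest changes, up to 4 per direction, and for the member with the smallest p in each complex, and of each other list at most the 2 genes with the smallest p were named. The alternatives were other scalings and filters, DESeq2 1.42.0, a model of the compared groups alone, a replicate block, an adjusted p under 0.01 and each library left out. After the data were seen, leaving out the 5 high-score or the 5 low-score libraries of the component and using it as a covariate were added.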

Additional observations from a re-analysis of the deposited data

Results flagged for a closer look

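The effects of nelfinavir and of ISRIB differed with and without bortezomib in 8 and 11 members, by the test of the interaction. All of these were called higher, against 9.85% and 3.07% of all genes. For nelfinavir the interactions on the log2 scale were 0.40 (*SEC61A1*), 0.40 (*SEC63*), 0.46 (*SSR1*), 0.59 (*SSR2*), 0.59 (*SSR3*), 0.76 (*SPCS3*), 0.57 (*STT3B*) and 0.70 (*MAGT1*). For ISRIB they were 0.59 (*SEC61A1*), 0.52 (*SEC63*), 0.97 (*SSR1*), 0.62 (*SSR2*), 0.71 (*SSR3*), 0.94 (*SPCS3*), 0.40 (*RPN2*), 0.76 (*DAD1*), 0.64 (*STT3B*), 0.61 (*OSTC*) and 1.05 (*MAGT1*). The call on *SEC61A1* for nelfinavir was lost under 6 of 30 alternatives, and that on *RPN2* for ISRIB under 24 of 30. Both interactions share the DMSO and bortezomib libraries.

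By Dixon's test at 95%, 11 of 196 groups of 4 libraries held 1 library far from the other 3, against 9.8 that chance gives. In 4 of these the library was among the 5 high-score libraries: *SRP68* at 138 CPM in bortezomib with nelfinavir replicate 3 (others 109 to 110), *SEC61G* at 231 and *RPN2* at 326 CPM in ISRIB replicate 3, and *OSTC* at 147 CPM in nelfinavir replicate 3 (others 156 to 157). The others were *SRP68* at 59.3 CPM in bortezomib replicate 3, *SRP72* at 268 CPM in bortezomib replicate 4 (others 203 to 209), *SRPRB* at 217 CPM in nelfinavir replicate 1, *SSR4* at 37.6 CPM in bortezomib with ISRIB replicate 1, *RPN2* at 545 CPM in DMSO replicate 3, and *TUSC3* at 0.13 CPM in nelfinavir replicate 4 and at 1.23 CPM in bortezomib with ISRIB replicate 4.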

How the results depend on the processing

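Members called in bortezomib against DMSO depended on the scaling. In place of 9 called higher, there were 5 with upper-quartile factors (24.1% of all genes) and 1 with library totals alone (11.7%). With library totals alone 20 in place of 10 were called lower (49.2% of all genes). There *SRP72* (−0.18), *SRPRB* (−0.17), *SEC61A1* (−0.19), *SEC62* (−0.26), *SEC63* (−0.27) and *SEC11A* (−0.22) reversed. For nelfinavir added to bortezomib, 23 in place of 14 were called higher without the high-score libraries, and in place of 1 called lower there were 2 without the low-score libraries, 2 without a filter on low counts, 0 with edgeR's default filter, 0 with the compared groups alone, 0 at an adjusted p under 0.01 and 2 with the component as a covariate. Between the co-treatments, in place of 2 called lower there were 4 without the low-score libraries, 4 with upper-quartile factors, 1 with library totals alone, 1 with the compared groups alone, 1 at an adjusted p under 0.01 and 5 with the covariate. For the nelfinavir interaction, 13 in place of 8 were called higher and 1 in place of 0 lower without the high-score libraries, 1 lower without the low-score libraries and 1 lower with the covariate. Before these alternatives, 15.5% of all genes were called higher and 13.3% lower with nelfinavir added. Between the co-treatments 11.2% were called lower, and for the nelfinavir interaction 9.85% were called higher and 9.96% lower. Leaving out 1 library at a time gave 3 to 7 members called higher in bortezomib against DMSO (3 without bortezomib replicate 4, 4 without DMSO replicate 2), 0 to 1 called lower with nelfinavir added, 1 to 3 called lower between the co-treatments and 0 to 1 called lower for the nelfinavir interaction. Replicate numbers did not pair the libraries by the labels, and 13 of 60 same-numbered pairs had correlated deviations above 0.1, against 12 of 180 other pairs. A replicate block left 86 of 87 gene calls in place and lost that of *SEC61G* with ISRIB added (adjusted p = 0.0748). Under it 10 members were higher and 10 lower in bortezomib against DMSO (27.7% and 26.1% of all genes). With nelfinavir added there were 15 and 1, and with ISRIB added 13 and 0. Without the block, 15.5% and 13.3% of all genes were called with nelfinavir added, and 6.89% and 5.40% with ISRIB added. The causes were not tested. Depth limits *TUSC3* and *KRTCAP2*, which had at most 12 counts in any library.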
